A study of Homo sapiens with 12 samples.

Results

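The genes described here are 40 human genes of the centromere and the kinetochore. They were listed by name from their known functions, at a time when earlier results of these data were known. Each was sought by GENCODE 29 symbol among the 58243 human gene identifiers of the count tables. All 40 were found, and all 40 passed the filter on low counts that left 18628 human genes for testing. They fall into 6 parts by role: 5 genes of centromeric chromatin and its loading, 13 of the constitutive centromere-associated network, 9 of the outer kinetochore, 4 of the corona and motors, 6 of the spindle checkpoint and 3 of the SKA complex.

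RNA was sequenced from 12 tumours that the human breast line MCFDCIS, which forms lesions like ductal carcinoma in situ, grew under the skin of athymic nude mice, hosts that lack mature T cells. Palbociclib, which blocks CDK4 and CDK6, the kinases that drive cells from G1 into S phase, was given by mouth at 50 mg per kg each day for 2 weeks, and control tumours had 2 weeks of vehicle. At the initial stage 3 tumours of each treatment were taken, at the end of dosing. Another 3 of each were taken at the recovery stage, after a further period without dosing whose length the labels do not state. All 4 groups share the same line and host, the age of the mice is not stated, and nothing says whether the tumours of a group grew in separate mice. The p-values therefore measure the spread between these tumours.

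The centromere is the stretch of chromatin, marked by the histone H3 variant CENP-A, on which a chromosome builds its kinetochore. The constitutive network binds this chromatin through the cell cycle. In mitosis the outer kinetochore joins it, holds microtubules through the NDC80 complex, and recruits the checkpoint proteins that delay anaphase until every chromosome is attached. The transcripts of many of these genes are known to rise in G2 and mitosis, and bulk RNA cannot tell fewer dividing cells apart from less RNA per cell.

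Counts assigned to genes numbered 8004903 to 15716211 per tumour, of which 14.2% to 25.4% were mouse. The mouse share was 17.0% to 25.4% in palbociclib and 15.5% to 17.4% in vehicle tumours at the initial stage. At recovery it was 19.0% to 21.6% and 14.2% to 18.1%, without overlap. The mitochondrial share of human counts was 5.32% and 11.2% in vehicle initial tumours 2 and 3 and 0.674% to 2.64% in the other 10. Vehicle recovery tumour 2 had the highest level of all 12 tumours in 32 of the 40 genes, and palbociclib initial tumour 3, with the highest mouse share, the lowest in 29. Epithelial markers were abundant in every tumour, with KRT5 between 979 and 1920 CPM (counts scaled per 1e6 human counts, with TMM factors). Of 9 markers of blood, vessel, stroma, fat and muscle cells, PTPRC, CD68, ADIPOQ and DES had 0 to 8 counts. Another pair, PECAM1 and COL3A1, had 39.0 to 114 CPM and 67.6 to 213 CPM. Summed, the 9 markers had 181 to 302 CPM in palbociclib and 189 to 277 CPM in vehicle tumours at the initial stage. Of these, the endothelial marker PECAM1 was at 58.9, 43.6 and 62.8 CPM in the vehicle group of that stage, against 88.5, 65.2 and 114 CPM under palbociclib. These groups did not overlap, and the difference did not pass the threshold (log2 fold change 0.70 ± 0.22 SE, edgeR adjusted p = 0.20). VWF, also endothelial, overlapped, at 1.04, 0.879 and 0.791 CPM in vehicle and 1.78, 0.930 and 0.386 CPM in palbociclib tumours. Of the 5 markers tested, 3 had positive and 2 negative log2 fold changes, and 0 passed. KRT5 itself was higher under palbociclib at that stage (log2 fold change 0.74 ± 0.17 SE, edgeR adjusted p = 0.040). It was the only 1 of 8 epithelial markers called, and 5 had positive and 3 negative log2 fold changes. The palbociclib and vehicle means were 992 and 1021 CPM for KRT8, 389 and 424 CPM for KRT18, and 69.1 and 85.6 CPM for TP63. The part of these differences in the results below was not tested, except where a value without a library or with a share as covariate is given.

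At the initial stage 20 of the 40 genes were lower in palbociclib tumours and 0 were higher (edgeR quasi-likelihood test, Benjamini-Hochberg adjusted p under 0.05). Of all genes tested, 1.7% were called lower and 0.14% higher. The list was drawn up with earlier results of these data known, so such shares are only a description. The median log2 fold change was -0.95 over the 40 genes and 0.00 over all genes tested. In 31 of the 40 the 3 palbociclib tumours all lay below the 3 vehicle tumours, which held for 11.3% of all genes. The summed level of the 40 genes was 657 to 899 CPM in palbociclib and 1374 to 1670 CPM in vehicle tumours. The number called was 12 without vehicle initial tumours 2 and 3, which leaves 1 tumour in that group, and 12 with the mouse share as covariate. CENPL, CENPM, ZWINT, SPC25, KNTC1, SKA1 and SKA3 were lost in both, SPC24 in the first and CENPU in the second (edgeR adjusted p between 0.051 and 0.26). With each of the 12 tumours left out in turn, 13 of the 20 genes passed in every fit. CENPL, CENPM, ZWINT and SKA1 did not pass without palbociclib initial tumour 1 or 3 or vehicle initial tumour 1 or 2 (edgeR adjusted p between 0.059 and 0.14). SPC24 was lost without palbociclib initial tumour 1 or vehicle initial tumour 1, KNTC1 without palbociclib initial tumour 1 or vehicle initial tumour 2, and SKA3 without palbociclib initial tumour 3 (edgeR adjusted p between 0.053 and 0.066).

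**Figure D1:**
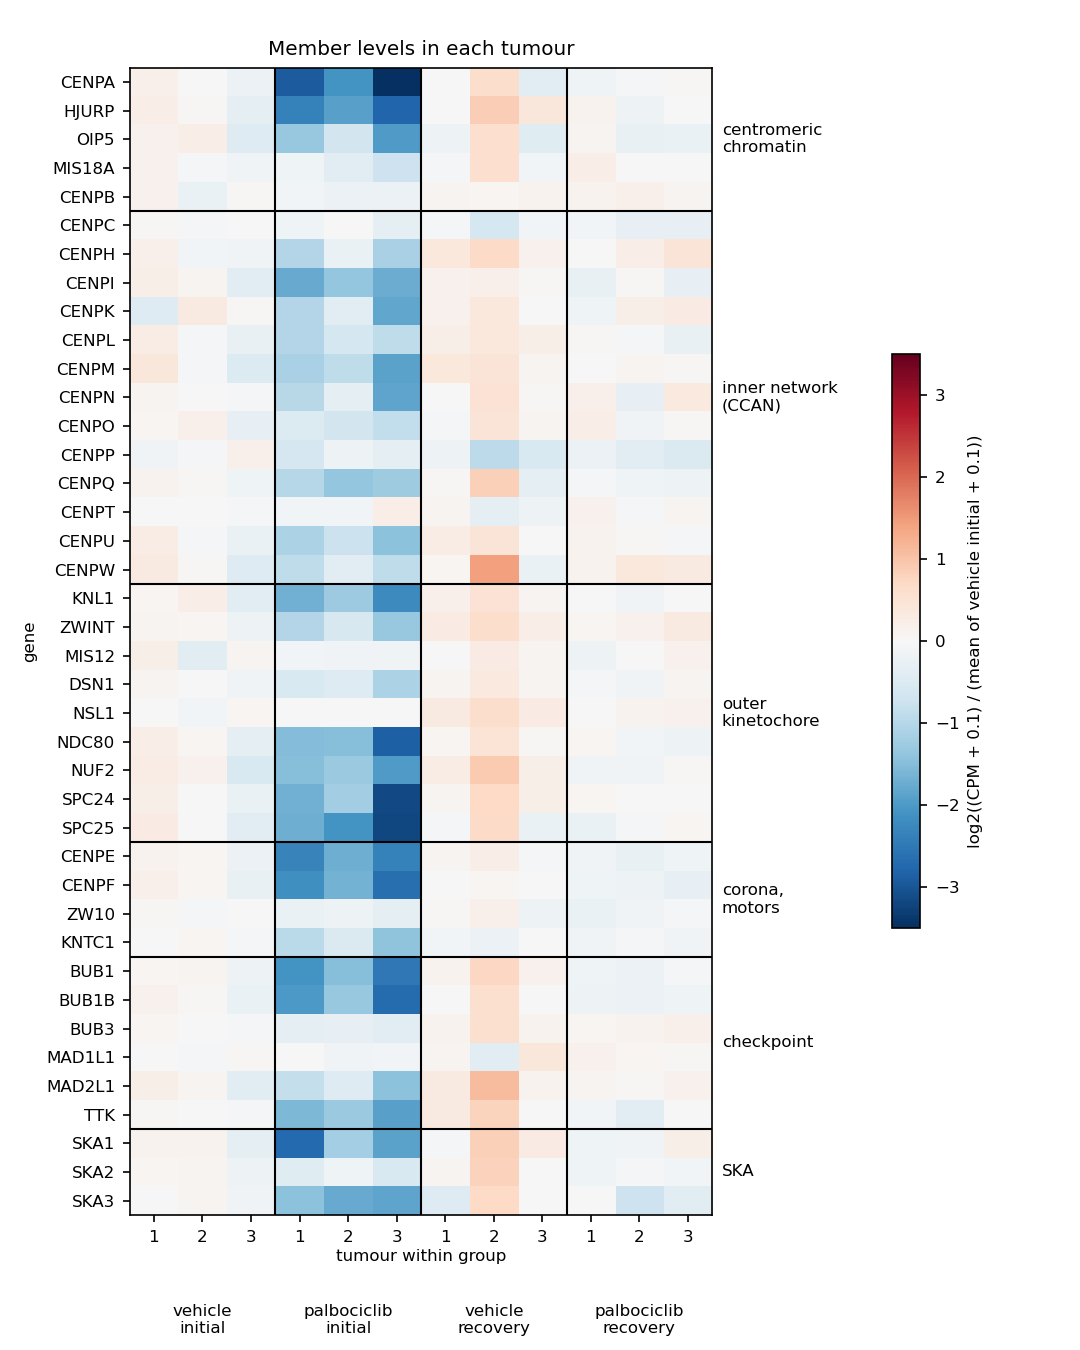
Level of each of the 40 genes (rows, by role) in each of the 12 tumours (columns), as log2 of CPM + 0.1 over the vehicle initial mean + 0.1. The 3 palbociclib initial columns hold the low values, deepest in CENPA, HJURP, SPC25 and CENPE, while CENPB, CENPC, CENPT and NSL1 stay near 0.

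Centromeric chromatin and its loading held the largest single fall, that of CENPA, the histone variant that marks the centromere (ENSG00000115163, GRCh38 chr2:26764289-26801067, plus strand). CENPA had 16.9, 14.7 and 12.8 CPM in vehicle tumours and 1.87, 3.41 and 1.06 CPM in palbociclib tumours. The groups were well apart, and palbociclib tumour 3 was the lowest. CENPA fell 7.07-fold, or -2.82 ± 0.34 as log2 fold change ± SE (edgeR adjusted p = 0.00040). HJURP, the chaperone that places CENP-A into chromatin (chr2:233833416-233854566, minus strand), had 29.5, 25.7 and 19.8 CPM in vehicle and 4.81, 6.61 and 3.57 CPM in palbociclib tumours. No palbociclib tumour came near a vehicle tumour, and the log2 fold change was -2.33 ± 0.26 (edgeR adjusted p = 0.00021).

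Both genes of the MIS18 complex, which licenses the centromere for new CENP-A, missed the threshold: OIP5 at -1.27 ± 0.36 (edgeR adjusted p = 0.13) and MIS18A at -0.40 ± 0.22 (edgeR adjusted p = 0.63). CENPB binds a DNA motif in alpha satellite repeats (chr20:3783851-3786690, minus strand). It had 115, 87.9 and 107 CPM in vehicle and 97.3, 89.3 and 89.8 CPM in palbociclib tumours. The groups overlapped, and the 95% interval of the log2 fold change, -0.38 to 0.05, lay wholly above the interval of CENPA, -3.48 to -2.16. CENPA shares exon sequence with its same-strand neighbour SLC35F6 in GENCODE 29, so reads there may belong to either gene.

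In the constitutive network 4 of 13 genes fell, with a median of -0.85. CENPI, a subunit of the group that bridges CENP-A chromatin to the rest of the network (chrX:101098218-101163681, plus strand), had 16.5, 15.2 and 10.8 CPM in vehicle and 4.10, 5.48 and 4.15 CPM in palbociclib tumours. All 3 palbociclib tumours were below all 3 vehicle tumours, and the log2 fold change was -1.64 ± 0.20 (edgeR adjusted p = 0.00043). CENPU, a partner of CENPO, CENPP and CENPQ in the network, was at -1.09 ± 0.19, CENPL, a partner of CENPN, at -0.85 ± 0.17, and CENPM, which sits with CENPI, at -1.29 ± 0.27 (edgeR adjusted p = 0.0054, 0.019 and 0.023). CENPQ stood just outside the threshold at -1.23 ± 0.30 (edgeR adjusted p = 0.053). The other 8 genes of the network ran from -0.95 for CENPK, whose groups overlapped, to 0.02 for CENPT.

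The 2 proteins that connect the network to the outer kinetochore showed no such difference in RNA. CENPC, which binds CENP-A nucleosomes and recruits the MIS12 complex (chr4:67468748-67545606, minus strand), had 47.8, 45.8 and 47.1 CPM in vehicle and 42.5, 47.7 and 37.3 CPM in palbociclib tumours. CENPT, a histone-fold protein that recruits NDC80 (chr16:67828157-67847811, minus strand), had 24.6, 24.4 and 23.6 CPM in vehicle and 22.8, 22.4 and 28.2 CPM in palbociclib tumours. Both pairs of groups overlapped. The 95% intervals of the log2 fold changes were -0.44 to 0.15 for CENPC and -0.26 to 0.29 for CENPT, so a fall of the size seen for CENPI lies outside both. CENPW, the histone-fold partner of CENPT, was at -0.73 ± 0.38 with overlapping groups (edgeR adjusted p = 0.61).

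In the outer kinetochore 6 of 9 genes fell, with a median of -1.59. All 4 subunits of the NDC80 complex, the main microtubule binder, were among them, though the calls of SPC24 and SPC25 were lost under the alternatives given above, and that of SPC24 also when only the compared groups were fitted (edgeR adjusted p = 0.054). NDC80 (chr18:2571511-2616635, plus strand) had 24.4, 21.8 and 16.5 CPM in vehicle and 7.30, 7.33 and 2.80 CPM in palbociclib tumours. SPC25 (chr2:168834132-168913371, minus strand) had 5.29, 4.27 and 3.32 CPM in vehicle and 1.25, 0.930 and 0.386 CPM in palbociclib tumours, the lowest of these resting on 4 counts. In both genes the groups were apart, with palbociclib tumour 3 the lowest. The log2 fold changes were -1.85 ± 0.28 for NDC80, -1.59 ± 0.25 for NUF2, -1.84 ± 0.34 for SPC24 and -2.32 ± 0.39 for SPC25 (edgeR adjusted p = 0.0025, 0.0031, 0.013 and 0.0050).

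KNL1, the scaffold that docks the checkpoint kinases, was at -1.68 ± 0.22 (edgeR adjusted p = 0.00080), and ZWINT, which binds KNL1, at -0.95 ± 0.18 (edgeR adjusted p = 0.011). Of the MIS12 complex, the linker between the inner and the outer layer, none of the 4 measured subunits passed. These are DSN1, MIS12 and NSL1 of the 40 genes and PMF1 of the other kinetochore genes, which was at -0.19 ± 0.12 (edgeR adjusted p = 0.73). DSN1 was at -0.69 ± 0.18 (edgeR adjusted p = 0.081), without overlap between the groups. MIS12 was at -0.12 ± 0.16 and NSL1 at -0.00 ± 0.12 (edgeR adjusted p = 0.90 and 1.00), and the sign of both turned under other settings. NSL1 had 34.3, 31.9 and 36.1 CPM in vehicle and 34.1, 33.8 and 34.3 CPM in palbociclib tumours, so the palbociclib tumours lay inside the vehicle range.

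The corona and motor genes held the smallest p-values of the 40. CENPE, a kinesin that carries chromosomes toward the spindle equator (chr4:103105806-103198409, minus strand), had 75.4, 71.8 and 59.8 CPM in vehicle and 13.5, 21.0 and 13.3 CPM in palbociclib tumours. CENPF, a large corona protein that binds microtubules (chr1:214603195-214664588, plus strand), had 386, 357 and 283 CPM in vehicle and 76.7, 108 and 54.8 CPM in palbociclib tumours. Every palbociclib tumour was far below every vehicle tumour in both genes. CENPE fell 4.34-fold and CENPF 4.28-fold, with log2 fold changes of -2.12 ± 0.17 and -2.10 ± 0.20 (edgeR adjusted p = 2.5e-05 and 8.5e-05). Of the RZZ complex, which brings dynein to the corona, KNTC1 was at -0.91 ± 0.17 (edgeR adjusted p = 0.0095) and ZW10 at -0.24 ± 0.12 (edgeR adjusted p = 0.53). KNTC1 was called in 7 of the 10 alternative fits other than those leaving out 1 tumour. ZWILCH, the remaining subunit, is among the other kinetochore genes. It had 31.4, 30.1 and 26.7 CPM in vehicle and 21.9, 26.7 and 23.7 CPM in palbociclib tumours.

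Of the checkpoint genes 3 of 6 fell, with a median of -1.22, and the 3 were the kinases and the kinase-like protein. BUB1, a kinase that marks centromeric chromatin (chr2:110637698-110678114, minus strand), had 45.5, 46.2 and 38.0 CPM in vehicle and 9.97, 15.3 and 7.53 CPM in palbociclib tumours. BUB1B, which encodes the checkpoint protein BUBR1 (chr15:40161023-40221136, plus strand), had 64.1, 58.5 and 49.0 CPM in vehicle and 14.2, 22.9 and 8.78 CPM in palbociclib tumours. TTK, the kinase that starts checkpoint signalling (chr6:80003887-80042527, plus strand), had 33.6, 33.3 and 31.8 CPM in vehicle and 11.0, 13.3 and 8.69 CPM in palbociclib tumours. The groups were far apart in all 3 genes. The log2 fold changes were -1.99 ± 0.23, -1.91 ± 0.27 and -1.58 ± 0.20 (edgeR adjusted p = 0.00031, 0.0022 and 0.00062). BUB1B shares exon sequence with the readthrough gene BUB1B-PAK6.

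The 3 other checkpoint genes did not pass. MAD2L1, which encodes the inhibitor MAD2, was at -0.87 ± 0.28 and BUB3, a partner of BUB1 and BUBR1, at -0.34 ± 0.12, both without overlap between the groups (edgeR adjusted p = 0.20 and 0.31). MAD1L1, the receptor of MAD2 at the kinetochore, had 30.1, 29.1 and 31.0 CPM in vehicle and 30.2, 27.8 and 28.4 CPM in palbociclib tumours. These groups overlapped, and the log2 fold change was -0.06 with a 95% interval of -0.37 to 0.25.

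In the SKA complex, which steadies the grip of NDC80 on microtubules, 2 of 3 genes fell. SKA1 (chr18:50374995-50394173, plus strand) had 4.51, 4.52 and 3.32 CPM in vehicle and 0.534, 1.76 and 1.06 CPM in palbociclib tumours, the lowest from 6 counts. SKA3 had 11.5, 12.3 and 10.4 CPM in vehicle and 4.19, 3.31 and 3.09 CPM in palbociclib tumours. Neither gene had overlapping groups, and the log2 fold changes were -1.90 ± 0.38 and -1.69 ± 0.29 (edgeR adjusted p = 0.018 and 0.0062). SKA1 was called in 7 and SKA3 in 8 of the 10 alternative fits other than those leaving out 1 tumour. SKA2, the third subunit, had 62.2, 62.9 and 51.6 CPM in vehicle and 43.9, 53.1 and 40.8 CPM in palbociclib tumours. Its groups overlapped by 1 palbociclib tumour, and its log2 fold change was -0.36 ± 0.19 (edgeR adjusted p = 0.60).

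**Figure D2:**
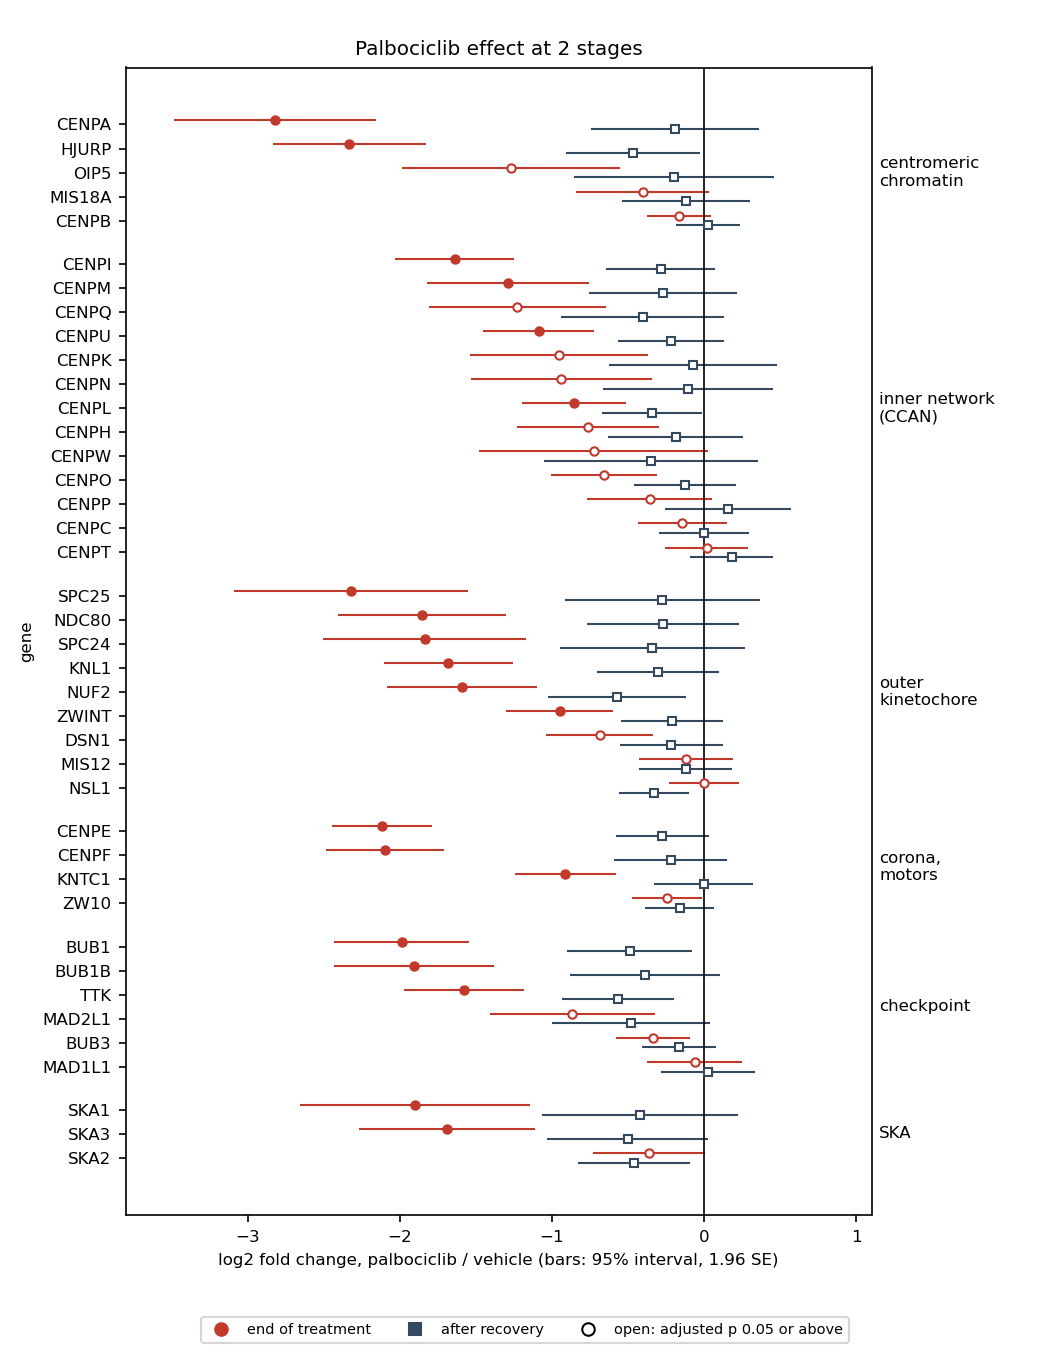
Log2 fold change of palbociclib over vehicle for each gene, by role, at the end of treatment (red circles) and after recovery (blue squares), with 95% intervals; filled symbols have an edgeR adjusted p under 0.05. The red symbols are filled for 20 genes and the blue symbols for 0, and within each role the red symbols span more than 1 log2 unit.

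Levels can be set side by side per kilobase of exon, as RPKM (CPM per kilobase). CENPB stood highest in vehicle initial tumours at 36.3 ± 4.87 RPKM (SD, n = 3), ahead of CENPF at 29.3 ± 4.53 and SKA2 at 18.7 ± 2.02. SPC25 at 2.33 ± 0.53, SKA1 at 1.40 ± 0.23 and CENPP at 1.14 ± 0.13 stood lowest. Ratios of RPKM within a tumour were formed for 8 pairs of partners, chosen after their values were seen, and are given as a description. CENPA to CENPB was 0.211, 0.239 and 0.172 in vehicle initial tumours and 0.0275, 0.0547 and 0.0169 in palbociclib initial tumours. It was 0.170, 0.178 and 0.199 in palbociclib recovery and 0.190, 0.301 and 0.146 in vehicle recovery tumours. SPC25 to NSL1 went from 0.281 ± 0.070 to 0.0558 ± 0.028, and was 0.249 ± 0.013 in palbociclib and 0.234 ± 0.049 in vehicle recovery tumours. CENPI to CENPT went from 0.747 ± 0.14 to 0.244 ± 0.063, and was 0.648 ± 0.12 in palbociclib and 0.901 ± 0.14 in vehicle recovery tumours. NDC80 to MIS12 went from 0.897 ± 0.27 to 0.262 ± 0.12, BUB1 to MAD1L1 from 1.73 ± 0.23 to 0.458 ± 0.18, and SKA1 to SKA2 from 0.0742 ± 0.0048 to 0.0253 ± 0.011. In palbociclib and vehicle recovery tumours NDC80 to MIS12 was 0.845 ± 0.17 and 0.919 ± 0.079. There BUB1 to MAD1L1 was 1.49 ± 0.13 and 2.31 ± 1.24, and SKA1 to SKA2 0.0799 ± 0.011 and 0.0787 ± 0.014. In all these pairs the ratio was lower in every palbociclib initial tumour than in every vehicle initial tumour.

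**Figure D3:**
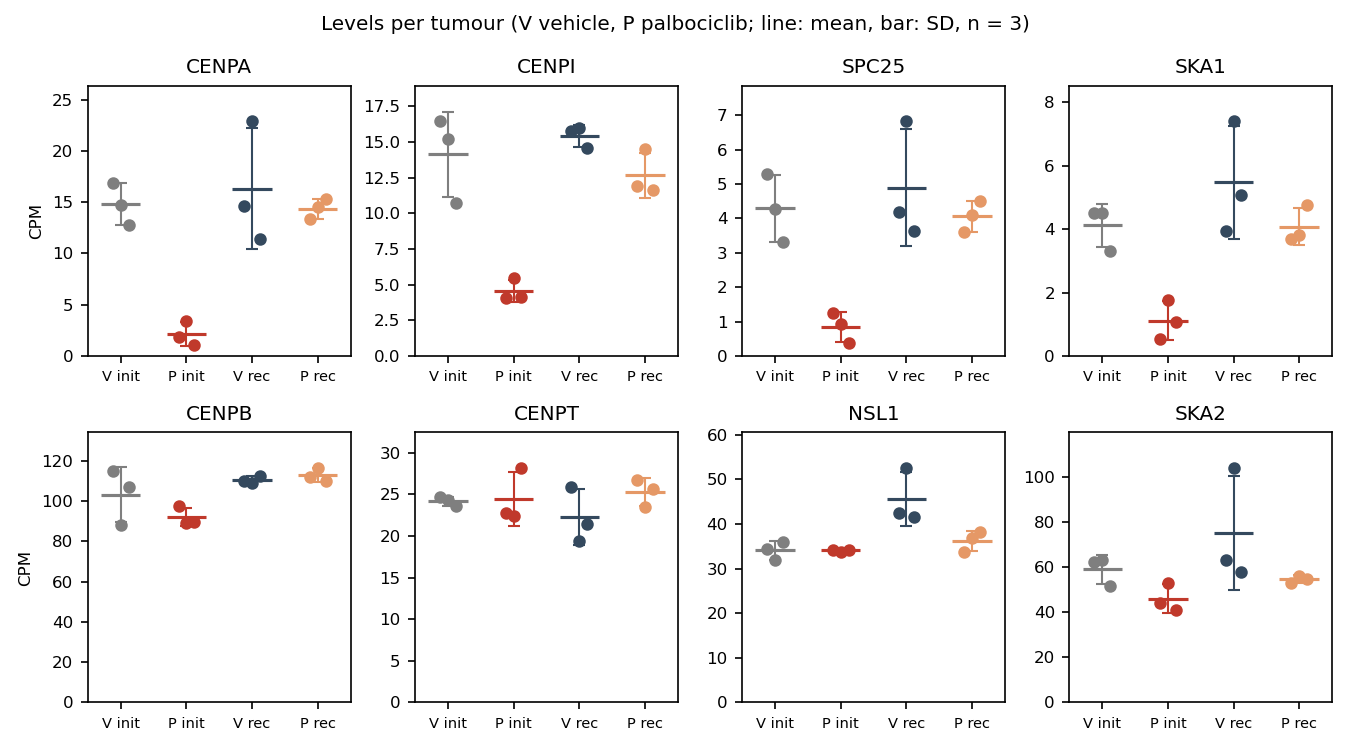
CPM of 4 genes that fell (CENPA, CENPI, SPC25, SKA1, upper row) and a partner of each that did not pass (CENPB, CENPT, NSL1, SKA2, lower row) in every tumour; points are tumours, lines means and bars SD (n = 3). The palbociclib initial points sit below all others in the upper row and within or near the vehicle points in the lower row.

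Promoter sequence was examined because genes of G2 and mitosis are known to share a promoter element, the cell cycle homology region (CHR), through which the DREAM and MuvB complexes act, and genes of G1 and S to share E2F sites. RefSeq promoter windows on GRCh38.p14, 250 bases before to 50 after the start, were matched for 32 of the 40 genes. CENPA, SPC25, NDC80 and BUB1B are shown as genes that fell with a CHR match near the start, CENPE as one that fell without a match, CENPC as one that did not pass with a match farther upstream, and NSL1 as one that did not pass without a match. Each stretch runs 5′ to 3′ on the strand of the gene, from 130 bases before the start to 30 after it, with every CHR match (TTTGAA on either strand, or the palindrome TTCGAA) in capitals. The coordinates are chr2:26785926-26786085 for CENPA, chr2:168890401-168890560 for SPC25, chr18:2571427-2571586 for NDC80 and chr15:40160939-40161098 for BUB1B. CENPE is at chr4:103198314-103198473, CENPC at chr4:67545474-67545633 and NSL1 at chr1:212791748-212791907. CENPA, NDC80 and BUB1B lie on the plus strand and the others on the minus strand.
CENPA: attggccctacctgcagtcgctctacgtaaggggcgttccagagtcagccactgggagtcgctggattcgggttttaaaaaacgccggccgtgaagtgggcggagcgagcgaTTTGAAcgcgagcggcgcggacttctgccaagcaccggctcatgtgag
SPC25: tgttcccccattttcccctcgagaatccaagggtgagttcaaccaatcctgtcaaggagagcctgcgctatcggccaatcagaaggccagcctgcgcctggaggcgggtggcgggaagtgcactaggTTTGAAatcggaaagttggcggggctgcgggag
NDC80: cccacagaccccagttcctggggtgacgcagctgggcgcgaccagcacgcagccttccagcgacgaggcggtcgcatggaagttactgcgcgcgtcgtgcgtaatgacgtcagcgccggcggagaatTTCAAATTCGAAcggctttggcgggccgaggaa
BUB1B: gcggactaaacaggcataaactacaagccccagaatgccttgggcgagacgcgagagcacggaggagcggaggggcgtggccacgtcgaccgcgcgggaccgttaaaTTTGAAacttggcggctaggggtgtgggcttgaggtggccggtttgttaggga
CENPE: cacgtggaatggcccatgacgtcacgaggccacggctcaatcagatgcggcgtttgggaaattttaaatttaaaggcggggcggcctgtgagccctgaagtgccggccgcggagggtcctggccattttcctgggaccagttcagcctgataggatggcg
CENPC: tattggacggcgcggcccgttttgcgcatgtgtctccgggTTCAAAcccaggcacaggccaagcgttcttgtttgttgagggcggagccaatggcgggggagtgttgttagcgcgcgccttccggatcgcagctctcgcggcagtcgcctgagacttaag
NSL1: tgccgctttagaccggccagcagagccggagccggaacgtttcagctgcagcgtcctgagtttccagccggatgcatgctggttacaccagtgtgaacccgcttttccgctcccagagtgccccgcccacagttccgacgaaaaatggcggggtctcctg

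The CHR letters were found in 18 of the 32 windows (56.3%), against 16.6% of 27305 RefSeq promoters. Of the 18 genes with a match 11 fell at the initial stage, with a median log2 fold change of -1.64. Of the 14 without one 4 fell, with a median of -0.52. A narrower window was set after the positions were seen and is given only as a description. It moves HJURP, CENPC and ZW10 to the genes without a match. A match starting between 40 bases before the start and the end of the window was present in 15 genes (46.9%), against 4.56% of all promoters. Of these 15 genes 10 fell, with a median of -1.69, and of the other 17 genes 5 fell, with a median of -0.36. In CENPA the match starts 18 bases before the start, in BUB1B 23 bases before it and in SPC25 3 bases before it.

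Matches near the start were not found in 5 genes that fell, CENPE, CENPI, CENPU, SPC24 and HJURP, the last of which has a match 111 bases before its start. They were found in 5 genes that did not pass: OIP5, CENPN, CENPO, CENPW and MAD2L1. Among other tested genes with a promoter window, 23.9% of the 218 called lower had a match near the start, 0 of 19 called higher, and 2.97% of all 11220. The CCAAT box (CCAAT, either strand) was in 18 of 32 windows (56.3%), against 35.7% of all promoters, with medians of -1.02 with and -1.14 without it. The E2F core (the letters TTCCCGC or the letters TTGGCGC, and the variants with TTGCCGC or with TTCGCGC, either strand) was in 14 of 32 (43.8%), against 13.1%, with medians of -1.16 and -0.84. None of the listed motifs contains another, TTCGAA reads the same on both strands and was counted once, and a match is only a description of these letters.

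**Figure D4:**
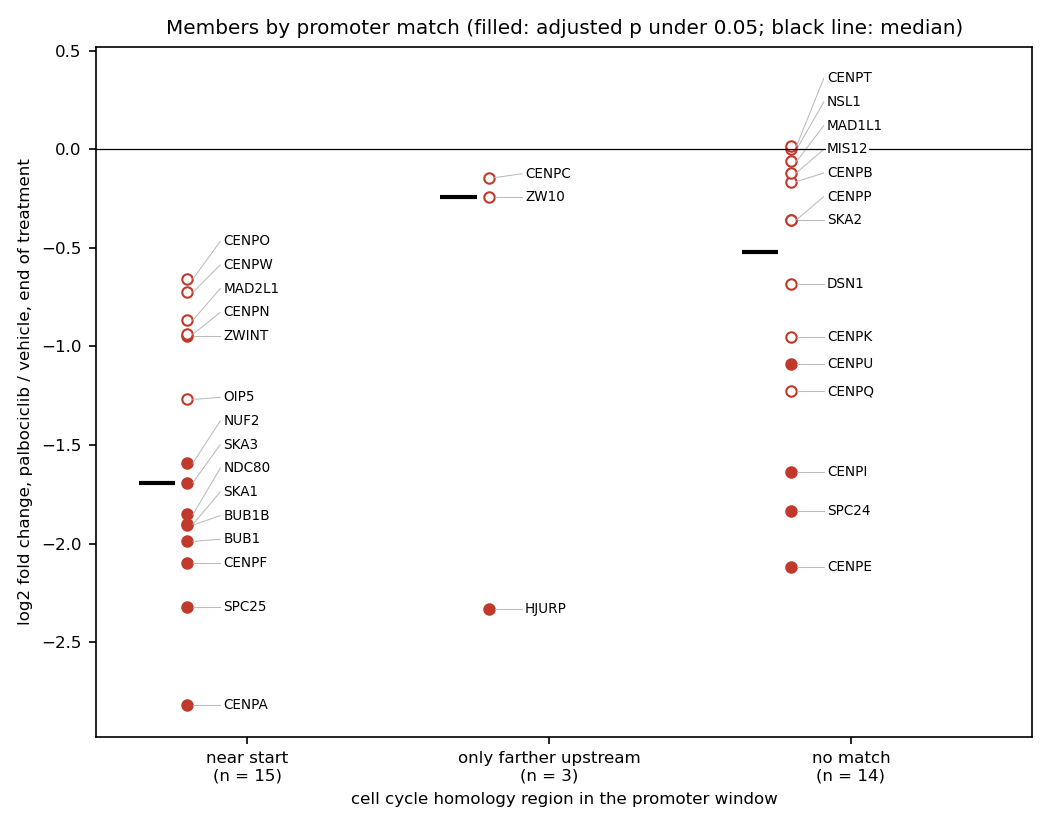
Log2 fold change at the end of treatment (vertical axis) of the 32 genes with a RefSeq promoter window, by where the CHR letters were found; filled points have an edgeR adjusted p under 0.05 and black lines are medians. Of the 15 genes with a match near the start 10 are filled, and the other 17 genes reach from near 0 to -2.33.

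After recovery, palbociclib tumours were compared with vehicle tumours to ask what was left of the effect. None of the 40 genes passed, that is 0 of 40 by edgeR, by which 0.00537% of all genes, 1 gene, passed as lower. DESeq2 also called 0 of the 40, and 20 genes lower among all genes. The median log2 fold change was -0.25, against -0.00 over all genes. It was negative for 36 of the 40 genes and for 50.2% of all genes. In 13 genes the palbociclib tumours all lay below the vehicle tumours, which held for 5.5% of all genes. At an unadjusted p under 0.05 stood 5 genes, all lower: TTK at -0.57 ± 0.19, NUF2 at -0.57 ± 0.23, BUB1 at -0.49 ± 0.21, SKA2 at -0.46 ± 0.19 and NSL1 at -0.33 ± 0.12 (edgeR adjusted p = 0.57 for each). Of all genes, 8.65% reached that level in either direction.

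CENPA had 14.6, 22.9 and 11.4 CPM in vehicle recovery and 13.3, 14.5 and 15.3 CPM in palbociclib recovery tumours, with a log2 fold change of -0.19 and a 95% interval of -0.74 to 0.36. CENPE had 73.2, 80.7 and 66.5 CPM in vehicle and 63.1, 57.5 and 61.6 CPM in palbociclib recovery tumours, an interval of -0.58 to 0.03. BUB1 had 46.7, 71.4 and 48.3 CPM in vehicle and 38.7, 37.8 and 41.9 CPM in palbociclib recovery tumours. CENPA overlapped between the groups, while CENPE and BUB1 were lower in each palbociclib tumour by less than the test could separate. Vehicle recovery tumour 2 was the highest of its group in 34 genes. Without it the median of the 40 genes was -0.11, and without vehicle recovery tumour 3 it was -0.35. These are the ends of the range with 1 tumour left out. With the mouse share as covariate, which does not overlap between the recovery groups, the median was 0.01. With the mitochondrial share it was -0.23.

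The difference between the 2 effects, recovery minus initial, was positive for 37 of the 40 genes, with a median of 0.85 on the log2 scale against 0.01 over all genes. It passed for 4 genes, all positive, against 0.22% of all genes called in that direction. They were CENPE at 1.84 ± 0.23, CENPF at 1.88 ± 0.27, CENPA at 2.63 ± 0.44 and HJURP at 1.86 ± 0.34 (edgeR adjusted p = 0.0035, 0.011, 0.027 and 0.039). BUB1 at 1.50 ± 0.31, CENPI at 1.35 ± 0.27 and SPC25 at 2.05 ± 0.51 did not pass (edgeR adjusted p = 0.078, 0.070 and 0.23). It was negative for 3 of the 40 genes, against 48.7% of all genes, namely SKA2 at -0.10, MIS12 at -0.00 and NSL1 at -0.33.

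These calls rest on few tumours. When each of the 12 tumours was left out in turn, CENPE passed in 12 fits and CENPF in 11, failing without palbociclib initial tumour 1 (edgeR adjusted p = 0.057). CENPA and HJURP each passed in 2 fits, those without palbociclib initial tumour 2 and without vehicle recovery tumour 2. Their edgeR adjusted p in the other 10 fits was between 0.057 and 0.13 for CENPA and between 0.059 and 0.17 for HJURP. Without vehicle recovery tumour 2 the number called was 10, without palbociclib initial tumour 2 it was 9, and without palbociclib initial tumour 1 it was 1. It was 2 without any 1 of the other 9 tumours, and 0 without vehicle initial tumours 2 and 3 together.

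Within the palbociclib tumours, recovery was higher than the initial stage in 22 of the 40 genes, against 2.36% of all genes, and lower in 0, against 0.467%. This comparison uses the same 3 palbociclib initial tumours as the first one, so the 2 are not independent. The median was 1.09, and 33 genes were higher in every recovery tumour, against 14.9% of all genes. CENPA went from 2.11 ± 1.19 to 14.4 ± 0.983 CPM (SD, n = 3), CENPF from 79.9 ± 26.8 to 297 ± 13.3 CPM and BUB1B from 15.3 ± 7.14 to 50.8 ± 1.14 CPM. The log2 fold changes were 2.77 ± 0.34, 1.89 ± 0.20 and 1.73 ± 0.27 (SE, edgeR adjusted p = 0.00044, 0.00013 and 0.0037). By role, 2 of 5, 6 of 13, 6 of 9, 3 of 4, 3 of 6 and 2 of 3 genes rose, in the order of the opening. CENPH, at 0.99 ± 0.24, and CENPO, at 0.71 ± 0.18, both of the constitutive network, were near the threshold (edgeR adjusted p = 0.038 and 0.045). CENPC was at -0.08 ± 0.15, CENPP at 0.01 ± 0.21 and CENPT at 0.05 ± 0.14 (edgeR adjusted p = 0.87, 0.99 and 0.92). The number that rose was 14 without palbociclib initial tumour 1. With each of the 12 tumours left out in turn, 14 of the 22 genes passed in every fit and 8 did not. CENPO passed in 2 of the 12 fits, CENPH in 3, KNTC1 and SKA3 in 7, CENPL and CENPM in 8, SKA1 in 9 and SPC24 in 11.

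The palbociclib recovery tumours were close to each other. The summed level of the 40 genes was 1463 to 1488 CPM in them, against 1590 to 1968 CPM in vehicle recovery and 1374 to 1670 CPM in vehicle initial tumours. Among palbociclib initial tumours, in contrast, tumour 2 was the highest in 30 of the 40 genes and tumour 3 the lowest in 30. SPC24, a subunit of the NDC80 complex, had 6.68, 9.19 and 2.32 CPM there.

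Within the vehicle tumours none of the 40 genes passed between the stages, that is 0 of 40 by edgeR, by which 0% of all genes passed. DESeq2 also called 0 of the 40, and 38 genes lower and 46 higher among all genes. At an unadjusted p under 0.05 stood 4 genes, against 14.4% of all genes. They were NSL1 at 0.42 ± 0.12, ZWINT at 0.39 ± 0.17 and BUB3 at 0.29 ± 0.12, which were higher at recovery, and CENPP at -0.51 ± 0.21, which was lower (edgeR adjusted p between 0.29 and 0.34). The log2 fold change was positive for 36 of the 40 genes and for 9206 of the 18628 genes tested. The median over the 40 genes was 0.20, against -0.00 over all genes. With 1 tumour left out it ran from 0.06, without vehicle recovery tumour 2, to 0.32, without vehicle recovery tumour 3.

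The other kinetochore genes, 32 that are not among the 40, were read in the same fit. At the initial stage 14 of the 32 fell and 0 rose, against 1.7% and 0.14% of all genes tested. Their median was -0.50, against 0.00 over all genes. The 6 with the smallest p were KIF2C, a kinesin that takes microtubules apart, INCENP, AURKB and CDCA8 of the chromosomal passenger complex, the mitotic kinase PLK1, and SPAG5, a spindle and kinetochore protein. KIF2C was at -2.20 ± 0.20, INCENP at -0.97 ± 0.11, AURKB at -2.25 ± 0.27 and CDCA8 at -1.92 ± 0.26. PLK1 was at -2.39 ± 0.31 and SPAG5 at -1.51 ± 0.21 (edgeR adjusted p between 6.9e-05 and 0.0014 for the 6). None of the 32 passed at recovery, 0 by edgeR and 0 by DESeq2, which gave 1 of them no adjusted p. The median there was -0.16, against -0.00 over all genes. An unadjusted p under 0.05 by edgeR was reached by 4 of the 32, against 8.65% of all genes in either direction.

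For scale, 11 of 11 mitotic kinesins fell at the initial stage, with a median of -1.82. So did 6 of 8 condensin genes (median -0.77) and 5 of 14 genes of replication licensing (median -0.86). Of all genes tested, 1.7% were called lower there. The proliferation marker MKI67 was at -2.42 ± 0.23 and the topoisomerase TOP2A at -2.23 ± 0.26 (edgeR adjusted p = 9.2e-05 and 0.00056). MCM2, a subunit of the replicative helicase, was at -0.83 ± 0.22 and PCNA, the clamp of DNA polymerase, at -0.79 ± 0.24 (edgeR adjusted p = 0.099 and 0.18). Differences between these genes and the 40 were not tested.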

How the data were processed

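The authors deposited raw counts per Ensembl gene for 12 tumours, human and mouse genes in the same table. Tools listed in the submitters' processing notes, without their roles, are CASAVA 1.8, cutadapt, STAR and edgeR, and the builds are GRCh38 and GRCm38. Which program counted reads, with what strand rule and gene models, and what became of reads that fit both genomes was not given in the sources used here. Reads of overlapping genes (14 of the 40 genes share an exon with another, 12 of them on the opposite strand) and of pseudogenes (named copies exist for CENPC, CENPI, CENPU, BUB1, BUB3 and SKA2) could therefore be shared or split.

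Rows that name no gene held 37.0% to 69.1% of counts and were left out, as were 713 repeated rows of 484 identifiers. Symbols, exon lengths and coordinates came from GENCODE 29. Human counts were analysed in R 4.3.3 with edgeR 4.0.16: filterByExpr defaults (minimum count 10, minimum total 15), TMM factors between 0.858 and 1.06, and 1 quasi-likelihood model (glmQLFit, robust) with 4 group means and 8 residual degrees of freedom. P-values were Benjamini-Hochberg adjusted over 18628 genes, and a gene below 0.05 is called lower or higher. The 95% intervals are 1.96 SE, from a normal quantile, and are somewhat narrower than the quasi-likelihood test implies. For ZW10 at the initial stage the interval, -0.48 to -0.015, excludes no change, while the unadjusted edgeR p is 0.056. The biological coefficient of variation was 0.18. The model was tested on simulated data.

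Alternatives were RLE, upper quartile and total count scaling, DESeq2 1.42.0, no filter, a stricter filter, fits of only the groups compared, each tumour left out, vehicle initial tumours 2 and 3 left out, and the mouse or mitochondrial share as covariate. All 40 genes are described. Of 32 other kinetochore genes the 6 with the smallest p at the initial stage and any passing at recovery are named, with MKI67, TOP2A, PCNA and MCM2 for reference. PMF1 and ZWILCH are also given, beside the complexes they belong to. The 40 genes and all lists were chosen with earlier results of these data known. Replicate numbers only name tumours.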

Additional observations from a re-analysis of the deposited data

Results flagged for a closer look

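For 4 genes the effect of palbociclib differed between the stages by the interaction term of edgeR. The effect at recovery minus the effect at the end of treatment was 2.63 for CENPA, 1.86 for HJURP, 1.84 for CENPE and 1.88 for CENPF on the log2 scale. In all 4 genes each palbociclib tumour was below each vehicle tumour at the end of treatment. After recovery the groups overlapped for CENPA and HJURP and did not for CENPE and CENPF. The calls of CENPA and HJURP were lost in 10 of the 12 fits that leave out 1 tumour, and that of CENPF in 1.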

How the results depend on the processing

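No paired analysis was possible because the labels give no replicate number shared across groups. At the initial stage the number of the 40 genes called lower, 20, was between 14 and 26 with 1 tumour left out, 12 without vehicle initial tumours 2 and 3, and 12 with the mouse share as covariate. The number of positive differences between the stages, 4, was between 1 and 10 with 1 tumour left out, 10 by DESeq2, 13 with no filter on low counts, 7 with the mouse share as covariate and 0 without vehicle initial tumours 2 and 3. The rise within palbociclib tumours, 22 genes, ran from 14 to 29 with 1 tumour left out. Within vehicle tumours 1 gene, MAD2L1, passed with no filter (0.60, edgeR adjusted p = 0.028). Of the 38457 genes tested in that fit, 837 were called higher and 287 lower. MAD2L1 had 59.1 CPM in vehicle recovery tumour 2, against 33.9 and 29.5 CPM in vehicle recovery tumours 1 and 3. No alternative called any of the 40 genes at recovery.

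Log2 fold changes near 0 at the initial stage turned sign. CENPT ranged from -0.091 to 0.077 with 1 tumour left out, and was -0.0088 without vehicle initial tumours 2 and 3, -0.039 with the mouse share and -0.0060 with the mitochondrial share as covariate. MIS12 ranged from -0.27 to 0.0027 with 1 tumour left out. NSL1 ranged from -0.045 to 0.044 with 1 tumour left out, and was 0.0038 by RLE scaling, 0.027 by upper quartile and 0.057 by total count scaling, 0.0044 by DESeq2, 0.015 with no filter, 0.0059 with the stricter filter and 0.035 with the mitochondrial share as covariate. The cause of these shifts was not tested. Depth limits SPC25 and SKA1 most, whose lowest libraries held 4 and 6 counts.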
